A study of Mus musculus with 4 samples.

Results

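Isl1 and Lhx3, 2 of the 21728 protein-coding genes annotated on the 20 chromosomes analysed, were followed through Micro-C contact lists of mouse embryonic stem cells (ESCs) and cervical motor neurons (MNs). Pairs of 8 kb bins were taken when both bins lay inside one window around either gene, chr13:115304001-117000000 for Isl1 and chr2:26000001-26400000 for Lhx3 (GRCm38). The Isl1 window holds 15024 of the 23095428 listed ESC pairs and 12046 of the 21005697 MN pairs. The Lhx3 window holds 1099 and 1064. The rule uses no contact value.

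Micro-C joins pieces of cross-linked chromatin that lie near each other after digestion with micrococcal nuclease, and each joined read pair counts as 1 contact. All 4 groups derive from E14 mouse ESCs. WT ESCs and PATZ1 KO ESCs were grown with LIF and 2 inhibitors of differentiation signalling, and WT MNs and PATZ1 KO MNs were made from them through embryoid bodies patterned with retinoic acid and SAG, an agonist of the Hedgehog pathway. PATZ1 KO cells were clones made by CRISPR editing of Patz1, which encodes a zinc finger protein, and which clone entered Micro-C is not given in the sources used here. Each group is 1 library from its own pool of cells, so no difference has a replicate check and no p-value was computed. The lists number their libraries 1 and 2, and every direction between genotypes rests on reading 1 as WT and 2 as PATZ1 KO. The read totals that the study gives for its libraries run in the opposite order to the summed contacts in both cell states, so this reading could not be settled. Were it the other way round, the names WT and PATZ1 KO would change places throughout, also for the library that stands apart, while differences between MNs and ESCs seen in both genotypes would stay. Contacts carry no RNA level, so the labelled cell types could not be set against marker genes. Because a library pools many cells, a contact held by more cells and a stronger contact per cell cannot be told apart.

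Isl1 and Lhx3 encode LIM homeodomain transcription factors. Together with the adaptor protein that bridges LIM domains they form a complex on motor neuron enhancers, and both are used as selectors that give a progenitor its motor neuron identity. Isl1 (ENSMUSG00000042258.13, chr13:116298281-116309689, minus strand) stands alone in a gene desert that holds regulatory elements for neural, cardiac and other tissues. Lhx3 (ENSMUSG00000026934.15, chr2:26200212-26208289, minus strand) stands among closely packed genes and is also known for its part in pituitary development. At a domain border, contacts between both sides are scarce, and borders commonly coincide with sites of CTCF, the main insulator protein of vertebrates.

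The promoters are printed because the contact profiles given here start from the bins around them. The downstream Lhx3 start lies outside the 8 kb promoter bin of that gene and inside the 24 kb stretch around it. They are the 250 bases before each annotated start, from RefSeq (GRCm38.p6), 5′ to 3′ on the minus strand, and capitals mark matches to GGGGNGGGG, a G-rich word of the kind PATZ1 and its relative MAZ bind, on either strand.
Isl1, chr13:116309689-116309938: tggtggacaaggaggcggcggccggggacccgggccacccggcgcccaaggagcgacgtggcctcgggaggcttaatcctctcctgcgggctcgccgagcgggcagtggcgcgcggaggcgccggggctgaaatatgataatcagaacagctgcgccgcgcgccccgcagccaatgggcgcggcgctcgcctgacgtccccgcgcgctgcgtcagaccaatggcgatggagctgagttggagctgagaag
Lhx3, upstream start, chr2:26208250-26208499: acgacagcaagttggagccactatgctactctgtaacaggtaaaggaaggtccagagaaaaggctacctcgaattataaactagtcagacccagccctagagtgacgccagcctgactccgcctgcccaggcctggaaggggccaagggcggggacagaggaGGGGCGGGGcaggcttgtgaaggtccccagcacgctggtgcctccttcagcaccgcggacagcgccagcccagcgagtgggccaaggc
Lhx3, downstream start, chr2:26206576-26206825: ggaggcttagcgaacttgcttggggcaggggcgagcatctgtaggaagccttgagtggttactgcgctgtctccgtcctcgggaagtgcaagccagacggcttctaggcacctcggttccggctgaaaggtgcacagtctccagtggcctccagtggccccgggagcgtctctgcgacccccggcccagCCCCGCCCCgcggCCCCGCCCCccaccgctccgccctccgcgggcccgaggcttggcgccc
The upstream Lhx3 promoter holds 1 match and the downstream one 2, and the Isl1 promoter holds 0. Of 32619 promoters of the same length, 20.7% hold this word. GGGAGGG, the second word searched on both strands, is in 19.8% of them and in none of the 3 printed here.

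Contacts over the listed pairs summed to between 110991835 and 170946673 per library, without the pairs that only 1 library of a cell state had. Within the Isl1 window they came to 121875 and 108460 in WT and PATZ1 KO ESCs and 66378 and 81227 in the MNs of these genotypes. The Lhx3 window held 18463, 19334, 15884 and 12612, and 4 values in a row keep this order of libraries throughout. The median listed pair had 2 to 5 contacts, so contacts were summed over stretches of bins.

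The WT MN library stood apart in how its contacts followed GC content. In the lowest of 20 classes of GC content its bins had 0.974 of the average coverage, against 1.26 and 1.17 in WT and PATZ1 KO ESCs and 1.26 for the MNs of the knockout. In the highest class it had 0.996, against 0.754, 0.775 and 0.755. The Isl1 window is AT-rich, at 38.05% GC against 41.6% for chromosome 13, and the Lhx3 window is GC-rich, at 50.6% against 42.1% for chromosome 2. Values corrected for GC content are therefore given for the log2 ratios that involve WT MNs, but not for promoter levels by distance or for insulation scores. The ratio of PATZ1 KO MNs to PATZ1 KO ESCs does not use that library.

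The Isl1 promoter contacted distant parts of its gene desert more than sequence at the same distance elsewhere on chromosome 13. Contacts were divided by the mean over all covered pairs of the chromosome at that distance, which gives an observed over expected level (O/E), and brackets hold exact 95% Poisson intervals that cover counting error only. At 16 to 200 kb the promoter bin (chr13:116304001-116312000) had 277 contacts (WT) and 266 (PATZ1 KO) in ESCs, then 148 (WT) and 153 (PATZ1 KO) in MNs. The O/E was 0.910, 0.973, 0.769 and 0.794, so near contacts were at or below expectation in all 4 libraries. Their intervals overlapped between the cell states, with 0.806 to 1.02 (WT) and 0.860 to 1.10 (PATZ1 KO) in ESCs. In MNs they were 0.650 to 0.903 (WT) and 0.673 to 0.931 (PATZ1 KO). Both MN levels were nevertheless below both ESC levels. The log2 ratio of MNs to ESCs, with exact 95% binomial intervals, was -0.24 (-0.54 to 0.049) in WT and -0.29 (-0.59 to -0.00095) in PATZ1 KO. With GC content in the expectation it was -0.30 (-0.60 to -0.0088) and -0.28 (-0.58 to 0.014). Beyond 400 kb on the side of lower coordinates the cell states stood apart. There the O/E was 2.08 (1.69 to 2.54) and 2.65 (2.19 to 3.18) in WT and PATZ1 KO ESCs and 4.43 (3.73 to 5.22) and 4.60 (3.90 to 5.40) in the MNs of these genotypes. Both MN libraries were above both ESC libraries, and the intervals of the cell states did not overlap. These levels carry no GC correction and were not set against the mean of the window itself. Over all sides, distances and libraries of both genes, the coverage of both bins moved 65 such levels out of their intervals and left 15 inside. The expectation over listed pairs moved 23 and left 57 inside. A pair seen in only 1 library of a cell state is missing for both genotypes.

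**Figure D1:**
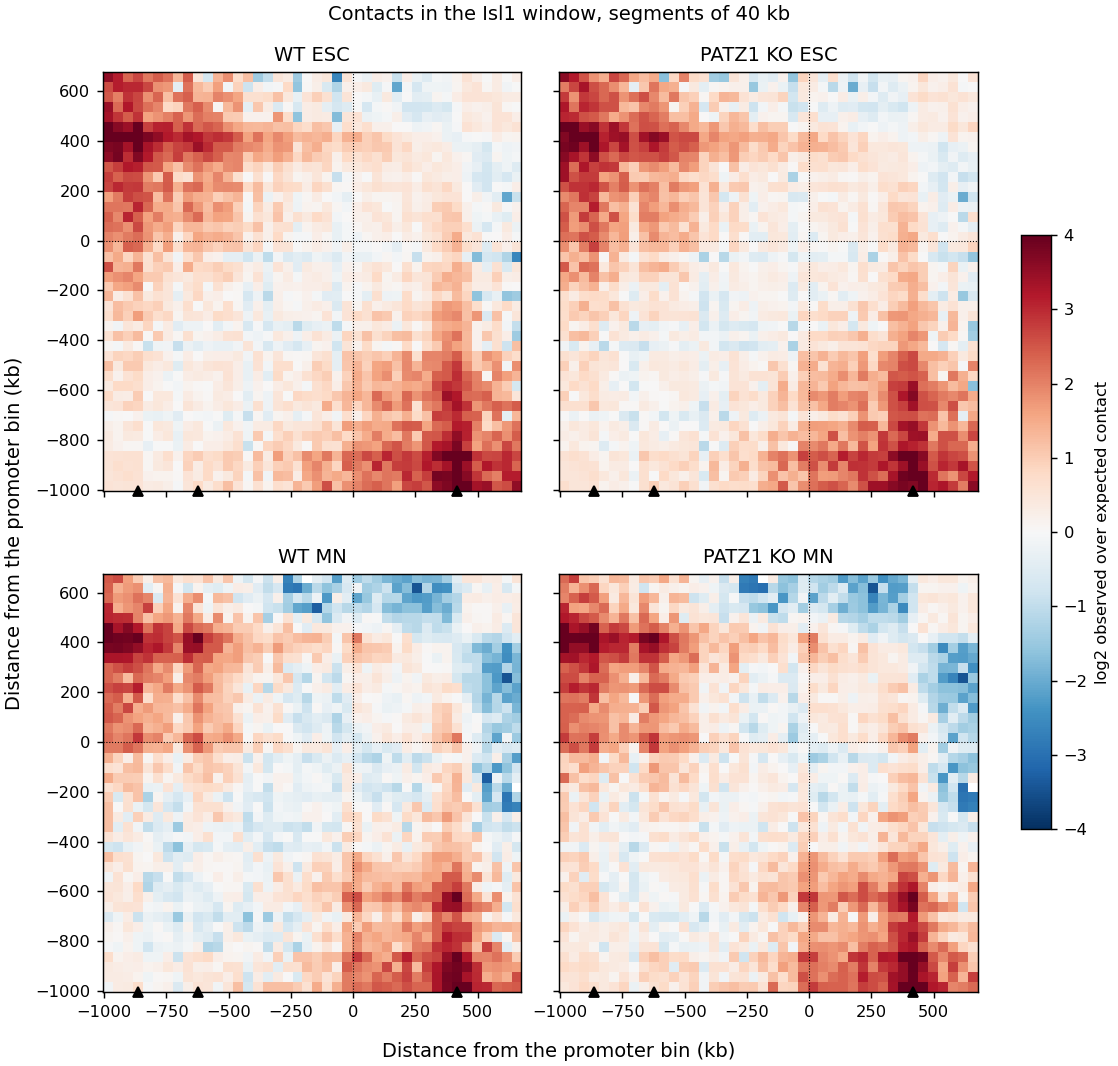
Contact maps of the Isl1 window in the 4 libraries, in segments of 40 kb. Both axes give distance from the promoter bin in kb (dotted lines), colour gives log2 observed over expected contact, and triangles mark the 3 distant segments. In both MN maps the promoter meets the triangles in spots, and the upper right corner beyond the third segment is blue against the rest of the window.

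To place these contacts, the promoter bin with 1 bin on each side (24 kb) was set against consecutive segments of 40 kb. Distant segments were those at least 200 kb away whose O/E over all 4 libraries was at least 3 and higher than in the neighbouring segments on both sides. This rule was set after the maps had been seen, and the levels that chose the segments are a description. It gave segment 1 (chr13:115424001-115464000), segment 2 (chr13:115664001-115704000) and segment 3 (chr13:116704001-116744000), which lie 864 kb and 624 kb below and 416 kb above the promoter. They are local maxima within a wider stretch of contact raised against the chromosome. Against the mean of the window at the same distance, segments centred over 400 kb below the promoter ran from 0.363 to 1.91 (WT) and 0.502 to 2.31 (PATZ1 KO) in ESCs. In MNs they ran from 0.935 to 5.98 (WT) and 1.16 to 5.94 (PATZ1 KO). In ESCs part of that side was thus below the mean of the window. On the lower side other segments reached 3 as well, from 3.05 at -544 kb to 5.04 at -904 kb, and segments 1 and 2 were at 8.045 and 6.31 over all libraries, with segment 3 at 3.92. The outermost segment of that side, at -984 kb, was at 4.21 against 3.79 at -944 kb. It has a neighbour on 1 side only and was not taken. None of the 3 overlaps an annotated gene. Among bins of 8 kb at least 40 kb from the promoter bin, only chr13:116704001-116712000, inside segment 3, reached 20 contacts with it over WT and PATZ1 KO ESCs. It had 6 and 14 contacts and an O/E of 7.80, and no such bin reached 20 in MNs.

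Of the 3 segments, segment 2 had the highest ratio of MNs to ESCs in both genotypes. Its contacts with the promoter stretch numbered 29 (WT) and 38 (PATZ1 KO) in ESCs, then 66 (WT) and 74 (PATZ1 KO) in MNs, although the MN lists hold fewer contacts in all. The O/E was 2.99 (2.00 to 4.29) and 4.08 (2.89 to 5.60) in ESCs and 9.62 (7.44 to 12.2) and 10.7 (8.37 to 13.4) in MNs. Both MN libraries thus stood above both ESC libraries. These levels also entered the choice of the segments, so ratios of MNs to ESCs at the 3 segments are a description too. WT MNs were 3.22-fold above WT ESCs, with a log2 ratio of 1.69 and an exact binomial (Clopper-Pearson) interval of 1.04 to 2.37. Among PATZ1 KO cells MNs were 2.61-fold above ESCs, with a log2 ratio of 1.38 (0.80 to 1.99). Corrected for GC content the log2 ratios were 1.84 and 1.35, corrected for the coverage of both bins 1.69 and 1.15, and against the mean of the window itself 1.86 and 1.44. The levels themselves were lower under each of these expectations, at 2.68, 3.75, 9.57 and 9.55 with GC content, 1.92, 2.42, 6.20 and 5.37 with bin coverage and 1.65, 2.19, 5.98 and 5.94 against the window. Segments outside the 3 had higher ratios in a single genotype. In WT the log2 ratio of MNs to ESCs was 2.34 (1.01 to 3.92) at -784 kb and 2.12 (1.15 to 3.20) at -664 kb. GC correction gave 2.48 and 2.24, and the PATZ1 KO ratios there were 0.94 and 1.21. At -344 kb the PATZ1 KO ratio was 1.76 (0.91 to 2.66) and the WT ratio 1.10, or 1.17 with GC correction.

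Segment 1 showed the same order with smaller differences. The promoter stretch had 27, 37, 40 and 46 contacts with it in WT ESCs, PATZ1 KO ESCs, WT MNs and PATZ1 KO MNs, and the O/E was 5.38, 7.54, 9.27 and 10.5. The log2 ratio of MNs to ESCs was 0.79 (0.045 to 1.55) in WT and 0.47 (-0.18 to 1.14) in PATZ1 KO, where the interval includes 0, and 0.94 and 0.44 after GC correction. Segment 3, on the other side of the gene, had 57, 71, 51 and 53 contacts at an O/E of 2.99, 3.98, 4.58 and 4.72. Its log2 ratio of MNs to ESCs was 0.61 (0.039 to 1.18) in WT and 0.24 (-0.30 to 0.78) in PATZ1 KO, and 0.55 and 0.28 after GC correction. With bin coverage the O/E was 2.80, 3.85, 5.42 and 4.49 for segment 1 and 1.78, 2.15, 2.57 and 2.17 for segment 3. Against the mean of the window it was 1.78, 2.31, 4.13 and 3.89 for segment 1 and 2.13, 2.96, 3.92 and 3.51 for segment 3.

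**Figure D2:**
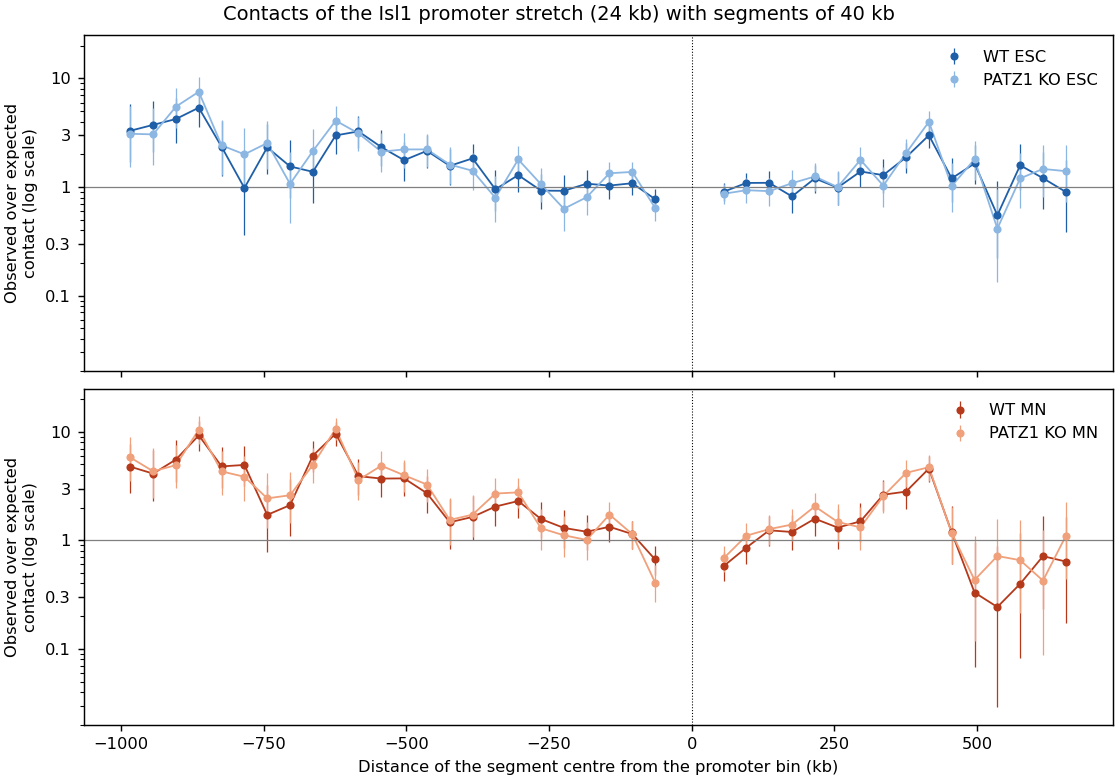
Observed over expected contact (log axis) of the 24 kb Isl1 promoter stretch with segments of 40 kb against their distance in kb, ESCs above and MNs below. Points are single libraries and bars are exact 95% Poisson intervals. The chosen segments are at -864, -624 and 416 kb. The second reaches 9.62 and 10.7 in MNs against 2.99 and 4.08 in ESCs, and in WT ESCs it is no peak, since the segment at -584 kb is at 3.25.

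The distant segments also met each other. Segments 1 and 3 lie 1280 kb apart and shared 72, 85, 83 and 94 contacts in WT ESCs, PATZ1 KO ESCs, WT MNs and PATZ1 KO MNs. Their O/E was 25.1, 30.03, 24.7 and 27.0, above the other pairs formed by the promoter and the segments under this expectation. Against the mean of the window at that distance it was 3.19, 3.57, 3.88 and 3.96, and in both MN libraries the promoter with segment 2 then stood higher, as did the promoter with segments 1 and 3 in WT MNs. With bin coverage it was 11.03, 13.4, 14.1 and 11.1. Segments 2 and 3 shared 49, 66, 82 and 95 contacts at an O/E of 9.19, 12.7, 15.9 and 17.8. Here MNs were higher than ESCs by a log2 ratio of 0.79 (0.27 to 1.33) in WT and 0.49 (0.024 to 0.97) in PATZ1 KO, and 1.10 and 0.43 after GC correction. Segments 1 and 2, 240 kb apart on the same side of the gene, were at 2.02, 1.62, 1.60 and 2.32. Their log2 ratio of MNs to ESCs was -0.33 (-0.83 to 0.15) in WT and 0.52 (0.054 to 0.98) in PATZ1 KO, and 0.20 and 0.38 after GC correction. Their log2 ratio of PATZ1 KO to WT was 0.53 (0.0038 to 1.07) in MNs, and -0.0051 after GC correction.

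**Figure D3:**
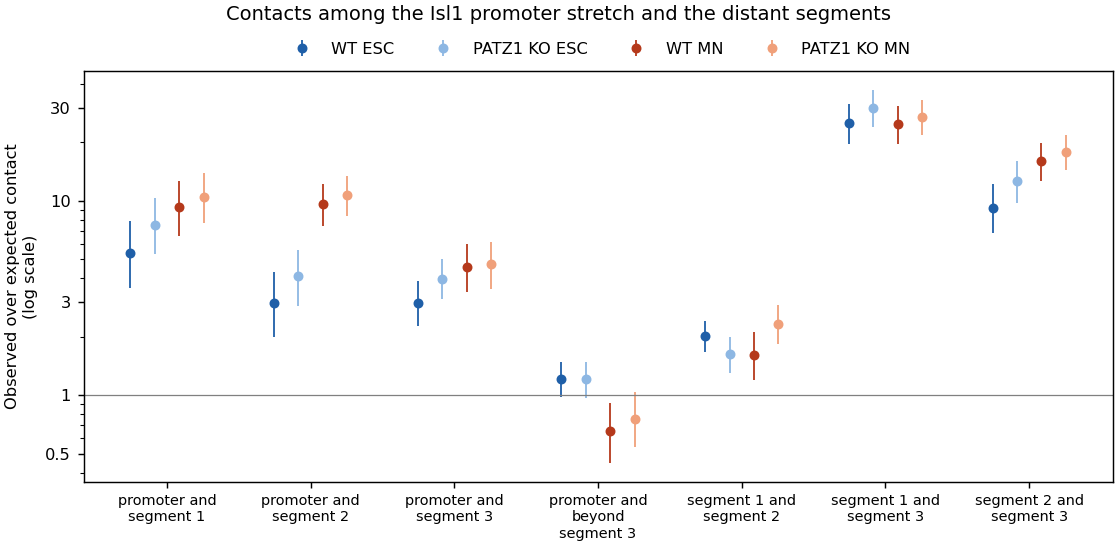
Observed over expected contact (log axis) among the Isl1 promoter stretch, the 3 distant segments and the stretch beyond segment 3, with exact 95% Poisson intervals, 1 point per library. The promoter with segment 2 and segment 2 with segment 3 are higher in both MN libraries, whereas the promoter with the stretch beyond segment 3 is lower in both.

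Matches to the 12-base core of the CTCF consensus were searched on both strands of these stretches, since such matches can mark anchors. Of all 40 kb stretches of the genome 16.2% hold one. Segment 2 holds 1, on the plus strand, and segments 1 and 3 and the promoter stretch hold 0. The match is printed with 8 bases on each side and the core in capitals.
Segment 2, chr13:115679770-115679797: tcagctatCCAGTAGGTGGCaatcttcc

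Between genotypes counting error covered the difference in the promoter's contacts with each segment taken alone, in both cell states. The ratios at segments 1, 2 and 3 were nevertheless all above 0 before GC correction, and the segments were not pooled. For the promoter with segments 1, 2 and 3 the log2 ratio of PATZ1 KO to WT was 0.49 (-0.27 to 1.26), 0.45 (-0.28 to 1.20) and 0.41 (-0.11 to 0.94) in ESCs. In MNs it was 0.17 (-0.47 to 0.82), 0.15 (-0.35 to 0.65) and 0.041 (-0.54 to 0.62), and 0.020, -0.0034 and 0.11 after GC correction. Each interval includes 0, and the upper limits in ESCs still allow a gain of over 1 on the log2 scale at segments 1 and 2. Over the whole profile of the single promoter bin, from 16 kb to the window edge, there were 518 and 546 contacts in WT and PATZ1 KO ESCs and 419 and 443 in the MNs of these genotypes. The log2 ratio of PATZ1 KO to WT was 0.21 (0.030 to 0.38) among ESCs and 0.077 (-0.12 to 0.27) among MNs. The promoter bin's relative coverage moved the same way, 1.14 (WT) and 1.29 (PATZ1 KO) in ESCs, and with bin coverage in the expectation the ratio was 0.020 among ESCs and -0.30 among MNs, so that in MNs the sign turned. GC correction gave 0.20 and 0.13. The corresponding ratio of MNs to ESCs was 0.38 (0.19 to 0.56) in WT and 0.25 (0.062 to 0.43) in PATZ1 KO, and 0.32 and 0.26 after GC correction.

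Contacts across the end of the desert were lower in MNs of both genotypes. Insulation was measured as the log2 of the mean contact in a 200 kb square spanning a bin over the mean of the chromosome, so that low scores mark borders. At chr13:116712001-116720000, inside segment 3, the score was -0.25 and -0.22 in WT and PATZ1 KO ESCs. It was -1.20 and -1.16 in the MNs of these genotypes, where 7.85% and 8.64% of the bins of chromosome 13 scored lower, against 30.2% and 33.4% in ESCs. The stretch from Isl1 to segment 3 (chr13:116320001-116712000) shared 1939, 1810, 523 and 538 contacts of up to 400 kb with the side of Parp8 (chr13:116744001-117000000), a gene for an ADP-ribosyltransferase. The O/E was 0.853 (0.815 to 0.891) and 0.863 (0.823 to 0.903) in ESCs and 0.406 (0.372 to 0.442) and 0.418 (0.383 to 0.455) in MNs. The log2 ratio of MNs to ESCs was -1.07 (-1.21 to -0.93) in WT and -1.05 (-1.19 to -0.91) in PATZ1 KO, and -0.81 and -1.09 after GC correction. For PATZ1 KO over WT it was 0.017 (-0.076 to 0.11) among ESCs and 0.044 (-0.13 to 0.22) among MNs. The MN value turned its sign and left this interval with GC correction, at -0.22, and with bin coverage, at -0.23.

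The promoter itself showed the same order. Its 24 kb stretch had 94, 89, 33 and 39 contacts with everything beyond segment 3, and the log2 ratio of MNs to ESCs was -0.90 (-1.52 to -0.31) in WT and -0.67 (-1.25 to -0.11) in PATZ1 KO, and -0.91 and -0.64 after GC correction. The insulation score of the promoter bin was 0.11 and 0.093 in WT and PATZ1 KO ESCs and -0.48 and -0.34 in WT and PATZ1 KO MNs, and in a square of 400 kb 0.44, 0.40, -0.010 and 0.10. Contacts that pass over the promoter, from the 392 kb below it to the 392 kb above, numbered 2993, 2648, 1146 and 1223. Their O/E was 1.15 and 1.11 in ESCs and 0.777 and 0.830 in MNs, a log2 ratio of MNs to ESCs of -0.57 (-0.67 to -0.47) in WT and -0.41 (-0.51 to -0.32) in PATZ1 KO. After GC correction it was -0.20 and -0.48, and with bin coverage in the expectation -0.023 and -0.27, so the WT value depends on the expectation used.

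Over all pairs of the Isl1 window at least 16 kb apart the differences that involve WT MNs did not hold under the correction for GC content. The log2 ratio of PATZ1 KO to WT was 0.0038 (-0.013 to 0.020) among ESCs and 0.24 (0.21 to 0.26) among MNs, and that of MNs to ESCs was -0.23 (-0.25 to -0.21) in WT and 0.0048 (-0.014 to 0.024) in PATZ1 KO. With GC correction the value in MNs became -0.14 and the one between WT libraries 0.15. Single pairs of bins 16 kb to 1000 kb apart with at least 20 contacts over both libraries gave the same picture. At least 1.5-fold higher in PATZ1 KO MNs than in WT MNs were 153 of 481 pairs of the window (31.8%) against 17.9% of pairs on all chromosomes, and at least 1.5-fold lower were 23 against 18.3%. After GC correction these counts were 57 and 87, or 11.85% and 18.1%. Of all pairs 114260 of 713937 were then higher and 14.2% lower. Between WT MNs and WT ESCs 31 of 673 pairs were higher against 17.9% of all pairs and 217 were lower against 18.6%, and after GC correction 118 and 95, or 17.5% and 14.1%, where 14.4% and 18.1% of all pairs passed. Without the WT MN library the uncorrected counts lay near the background. In ESCs 102 of 944 pairs were higher and 127 lower in PATZ1 KO, 10.8% and 13.5% of them, against 14.2% and 14.2% of all pairs. GC correction turned this order, to 134 and 103, or 14.2% and 10.9%, where 14.0% and 14.4% of all pairs passed. Between PATZ1 KO MNs and PATZ1 KO ESCs 107 of 703 were higher and 91 lower, 15.2% and 12.9%, against 15.5% and 16.4%. Here too the order turned with GC correction, to 78 and 118, or 11.1% and 16.8%, where 15.2% and 16.1% passed. The pair with the highest ratio between MN genotypes, chr13:116168001-116176000 with chr13:116192001-116200000, had 2 contacts (WT) and 19 (PATZ1 KO), and no annotated gene lies in either bin. The same pair had the lowest ratio of WT MNs to WT ESCs, where WT ESCs had 20 contacts.

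Around Lhx3 contacts could be followed over shorter distances only. The window ends near 200 kb on either side of the promoter, so it holds no stretch at the distances of the Isl1 segments. The promoter bin of Lhx3 (chr2:26208001-26216000), which also holds the 3′ end of its neighbour Qsox2, had from 16 kb to the window edge 233 contacts (WT) and 215 (PATZ1 KO) in ESCs, then 229 (WT) and 162 (PATZ1 KO) in MNs. The O/E was 0.721 (0.631 to 0.820), 0.754 (0.657 to 0.862), 1.10 (0.965 to 1.26) and 0.795 (0.677 to 0.927). WT MNs were the only library above 1, and with bin coverage in the expectation all 4 were, at 1.77, 1.60, 1.27 and 1.61. When the 24 kb around the promoter was set against segments of 16 kb, the O/E ran from 0.268 to 1.34 (WT) and 0.319 to 1.15 (PATZ1 KO) in ESCs. For MNs it ran from 0.307 to 2.17 (WT) and 0.429 to 2.32 (PATZ1 KO), with 4 to 89 contacts behind each value. The highest value of WT MNs lay 156 kb below the promoter, at the 3′ end of Nacc2, and rested on 27 contacts, where PATZ1 KO MNs had 14. The log2 ratio of PATZ1 KO to WT there was -0.91 (-1.95 to 0.072), and -0.21 with GC content and -0.14 with bin coverage. The highest value of PATZ1 KO MNs lay 172 kb below, between Nacc2 and Ubac1, and rested on 26 contacts, where WT MNs had 19. With bin coverage the value of PATZ1 KO MNs there was 4.21, and with GC content 3.73. Only 1 bin at least 40 kb away reached 20 contacts over WT and PATZ1 KO ESCs, and none did in MNs. It lies in Ccdc187, 48 kb from the promoter, with 10 contacts in each genotype and an O/E of 1.21.

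**Figure D4:**
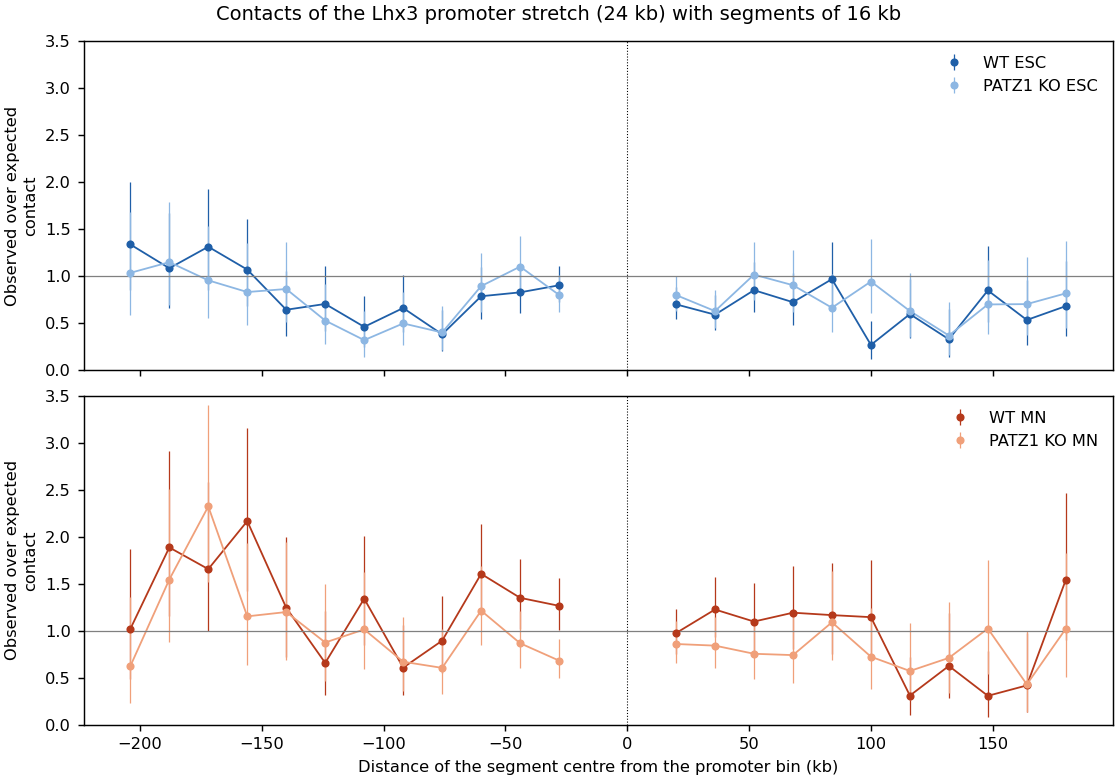
Observed over expected contact of the 24 kb Lhx3 promoter stretch with segments of 16 kb against their distance in kb, ESCs above and MNs below. Points are single libraries and bars are exact 95% Poisson intervals. Without GC correction WT MNs lie above PATZ1 KO MNs at the segments from -60 to 100 kb, whereas with it PATZ1 KO MNs are higher at all of these but the ones at -28 and 100 kb, and, as plotted, the highest values are 2.17 (WT) and 2.32 (PATZ1 KO) in MNs.

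Lhx3 lies with Qsox2, which encodes a sulfhydryl oxidase, and Ccdc187 between a pair of insulation minima. These minima in the mean of the 4 libraries lay at chr2:26144001-26152000, 64 kb below the promoter bin, and at chr2:26304001-26312000, 96 kb above it. At the upper minimum the score was -0.93 and -0.83 in WT and PATZ1 KO ESCs and -0.28 and -0.62 in the MNs of these genotypes. The lower minimum was at -0.43, -0.49, 0.33 and -0.13, and the promoter bin between them at -0.24, -0.31, 0.57 and 0.15 (in a square of 400 kb -0.58, -0.64, 0.20 and -0.12). In the 200 kb square WT MNs had the highest score at each of the 3 places, with scores that carry no correction for GC content, and the order of promoter and minima was the same in every library. The lower minimum was shallow, and in WT MNs 77.0% of the bins of chromosome 2 scored below it. Contacts between the stretch inside the minima (chr2:26152001-26304000) and the part of the window below were at an O/E of 0.778, 0.756, 1.26 and 0.913, against 0.867, 0.879, 1.28 and 0.939 within the stretch. These intervals overlap in WT ESCs and in both MN libraries, but not in PATZ1 KO ESCs. With the part above the upper minimum they were at 0.607, 0.669, 0.834 and 0.631. The place of WT MNs as the highest library did not hold under GC correction. Within the stretch the O/E was then 1.34, 1.28, 1.20 and 1.45, with the part below 1.20, 1.10, 1.20 and 1.41, and with the part above 0.975, 1.02, 0.803 and 1.01. The log2 ratio of PATZ1 KO to WT in MNs went from -0.44 to 0.27 within the stretch and from -0.40 to 0.34 with the part above, and that of WT MNs to WT ESCs from 0.56 to -0.15 and from 0.46 to -0.28. The ends of the stretch (chr2:26152001-26176000 and chr2:26280001-26304000) met each other in 68, 48, 44 and 38 contacts at an O/E of 1.81 (1.41 to 2.30), 1.44 (1.06 to 1.90), 1.98 (1.44 to 2.66) and 1.75 (1.24 to 2.41). These intervals overlap throughout, and the intervals of the 4 log2 ratios between libraries include 0. After GC correction the ratios that use WT MNs turned their sign and left those intervals. PATZ1 KO over WT in MNs went from -0.18 (-0.84 to 0.48) to 0.55, and WT MNs over WT ESCs from 0.13 (-0.45 to 0.70) to -0.60.

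The 24 kb centred on each minimum hold 1 match to the CTCF core, and 10.3% of stretches of that length hold one. They are on opposite strands, minus at the lower minimum and plus at the upper one, so they point away from each other. The study describes loop anchors at sites in convergent orientation. Both matches lie outside the 8 kb bin of the minimum, at lower coordinates. They are printed on their own strand with the core in capitals.
Lower minimum near Lhx3, chr2:26142146-26142173: gcacagtcCCAGCAGGTGGCgccaggcc
Upper minimum near Lhx3, chr2:26298722-26298749: gggaataaCCAGCAGATGGCaggtacac
The 24 kb around the Lhx3 promoter hold 0 matches.

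The promoter and window ratios of Lhx3 that use WT MNs turned their sign once GC content entered the expectation. For the promoter bin the log2 ratio of PATZ1 KO to WT was 0.064 (-0.21 to 0.34) among ESCs and -0.47 (-0.77 to -0.18) among MNs, and that of MNs to ESCs was 0.61 (0.34 to 0.88) in WT and 0.076 (-0.23 to 0.38) in PATZ1 KO. GC correction gave -0.019, 0.21, -0.072 and 0.16 in the same order, and bin coverage gave -0.15, 0.35, -0.49 and 0.013. Window contacts moved alike. They stood at a log2 ratio of 0.029 (-0.027 to 0.084) in ESCs and -0.44 (-0.49 to -0.38) in MNs for PATZ1 KO over WT, and at 0.63 (0.57 to 0.68) in WT and 0.16 (0.10 to 0.22) in PATZ1 KO for MNs over ESCs. With GC correction they were -0.054, 0.27, -0.077 and 0.24. The window ratio of PATZ1 KO MNs to PATZ1 KO ESCs kept its sign under both corrections, and bin coverage brought it to 0.10.

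**Figure D5:**
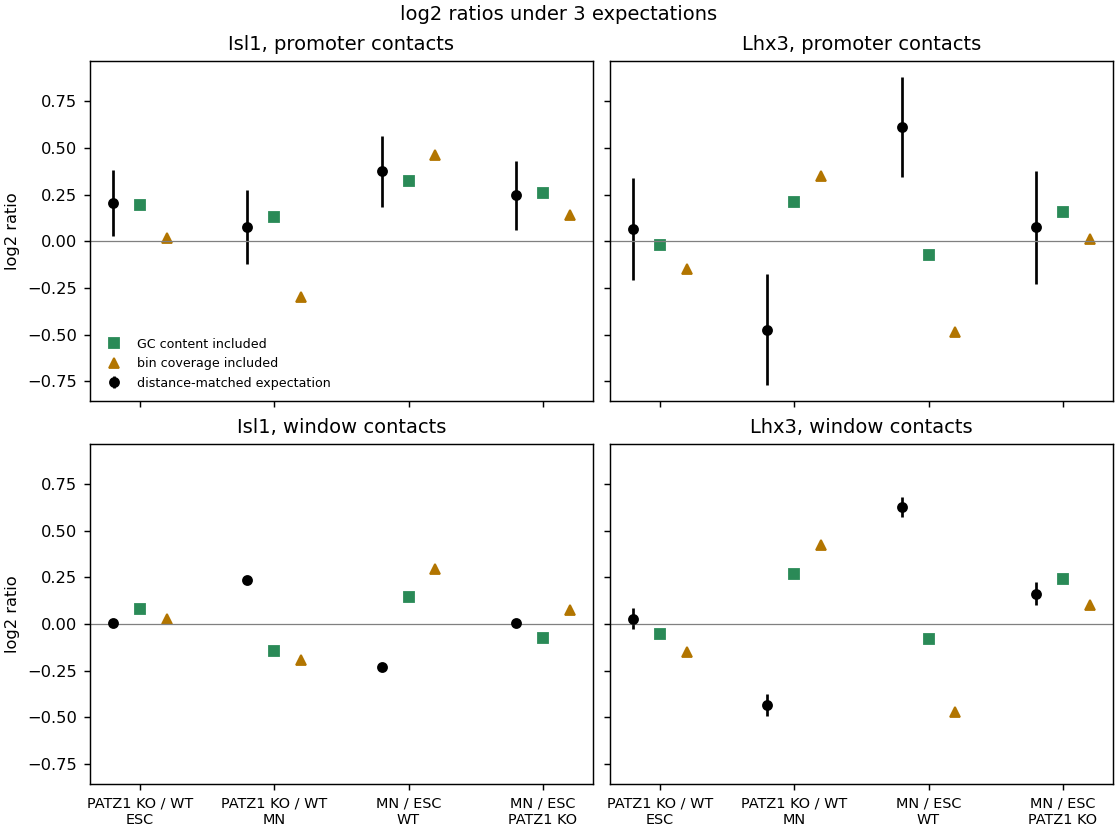
log2 ratios of promoter contacts (top) and window contacts (bottom) for Isl1 and Lhx3 in the 4 comparisons. Circles use the distance-matched expectation and carry exact 95% binomial intervals, squares include GC content and triangles the coverage of both bins. The Lhx3 ratios with WT MNs are at -0.47 and 0.61 as circles and at 0.21 and -0.072 as squares.

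Pairs of bins in the Lhx3 window behaved in the same way. At least 1.5-fold higher between WT MNs and WT ESCs were 65 of 129 pairs and lower were 2, where 17.9% and 18.6% of all pairs passed, and GC correction left 16 and 16, or 12.4% each, where 14.4% and 18.1% passed. Between MN genotypes 5 of 105 were higher in PATZ1 KO and 47 lower against 17.9% and 18.3%, and GC correction left 28 and 14, or 26.7% and 13.3%, where 114260 of 713937 pairs were higher and 14.2% lower. In ESCs 28 of 116 were higher and 13 lower in PATZ1 KO, 24.1% and 11.2%, against a background of 14.2% in each direction. GC correction left 20 and 17 of these ESC pairs, or 17.2% and 14.7%, where 14.0% and 14.4% passed. Between PATZ1 KO MNs and PATZ1 KO ESCs 19 of 86 were higher and 12 lower, 22.1% and 13.95%, against 15.5% and 16.4%. Here GC correction gave 22 and 10, or 25.6% and 11.6%, where 15.2% and 16.1% passed. The pair with the lowest ratio of PATZ1 KO to WT in MNs joins chr2:26296001-26304000 with chr2:26320001-26328000 in Gpsm1 across the upper minimum, where WT had 18 contacts and PATZ1 KO had 5. Within Nacc2, chr2:26064001-26072000 with chr2:26104001-26112000 had 15 contacts in PATZ1 KO MNs against 7 in WT MNs and 6 in PATZ1 KO ESCs, the highest ratio of the window in both comparisons.

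At 16 to 200 kb both genes were set among all promoters. Promoters with at least 200 contacts over both libraries were compared, and a log2 ratio of 0.32 in either direction was used as the mark. In ESCs neither gene passed it between genotypes, with log2 ratios of 0.096 for Isl1 and 0.056 for Lhx3, where 1.75% of 20362 promoters were higher and 7.51% lower in PATZ1 KO. Between MN genotypes Lhx3 was lower, at -0.42 (-0.72 to -0.13), and Isl1 within, at 0.047, where 7.50% of 19659 promoters were higher and 31.2% lower. With GC correction these ratios were 0.26 for Lhx3 and 0.11 for Isl1. Between WT MNs and WT ESCs Lhx3 was higher, at 0.61 (0.34 to 0.88), and Isl1 within, at -0.24, where 29.1% of promoters were higher and 12.0% lower. With GC correction they were -0.075 and -0.30, so both Lhx3 ratios that use WT MNs turned their sign. Neither passed between PATZ1 KO MNs and PATZ1 KO ESCs, at -0.29 and 0.13, where 12.6% were higher and 9.87% lower. With GC correction neither gene passed the mark in any of the 4 comparisons. The median log2 ratio over all promoters turned its sign as well. It went from -0.19 to 0.18 between MN genotypes and from 0.15 to -0.21 between WT libraries. Of all promoters 23.0% were then higher and 1.34% lower between MN genotypes, and 1.95% and 33.0% between WT libraries. Between ESC genotypes 1.26% were higher and 12.8% lower, and between PATZ1 KO libraries 17.7% and 7.67%. By level without GC correction, Lhx3 ranked above 13.25% of promoters (WT) and 24.04% (PATZ1 KO) in ESCs, then 58.6% (WT) and 29.6% (PATZ1 KO) in MNs, and Isl1 above 44.6%, 63.9%, 11.65% and 25.9%. These ranks use other sets of promoters, 20398, 20292, 19547 and 19459, that passed a lower minimum in the single library.

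The 33 related genes of the list, LIM homeodomain factors with their cofactors and other factors of motor neurons and their progenitors, all had enough contacts. In ESCs 1 was higher in PATZ1 KO and 0 lower, where 1.75% and 7.51% of all promoters passed. That gene was Olig2, the basic helix-loop-helix factor of motor neuron progenitors, which had 324 (WT) and 362 (PATZ1 KO) contacts and a log2 ratio of 0.37 (0.15 to 0.59). With GC correction Olig2 was within the mark, at 0.29, and 0 were higher and 4 lower, Mnx1 at -0.34, Nkx6-2 at -0.38, Hoxc8 at -0.35 and Hoxc5 at -0.40, where 1.26% and 12.8% of all promoters passed. Between MN genotypes 0 were higher and 5 lower in PATZ1 KO, where 7.50% and 31.2% of all promoters passed. The 5 were Lhx5 at -0.53, Ldb1, which encodes the LIM domain adaptor, at -0.42, Pou3f1 at -0.60, Hoxc8 at -0.39 and Hoxc5 at -0.58. With GC correction all of them turned their sign and were within the mark, at 0.22, 0.19, 0.11, 0.27 and 0.075. The median of the list was -0.14 beside -0.19 over all promoters, and 0.33 beside 0.18 with GC correction. WT MNs against WT ESCs gave 10 higher and 1 lower, where 29.1% and 12.0% of all promoters passed. Lmx1b at 0.71 and Ebf2 at 0.68 were highest and Ebf3 at -0.42 was the one below, and with GC correction these were at -0.024, 0.085 and -1.08. The median was 0.10 beside 0.15, and -0.30 beside -0.21 with GC correction. After GC correction the counts became 0 and 16, where 1.95% and 33.0% of all promoters passed, and those between MN genotypes 19 and 0, where 23.0% and 1.34% passed. Between PATZ1 KO MNs and PATZ1 KO ESCs 3 were higher, namely Mnx1, a homeodomain factor of motor neurons, at 0.51, Lhx2 at 0.48 and Lhx1 at 0.35, and Pou3f1 was lower at -0.34 (-0.69 to 0.0099), an interval that includes 0, where 12.6% and 9.87% of all promoters passed. With GC correction Pou3f1 was within the mark, at -0.26, and 5 were higher and 0 lower, where 17.7% and 7.67% of all promoters passed. Without that correction the median was 0.019 for the list and 0.024 for all promoters.

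Likeness of profile was measured as the Euclidean distance of log2 O/E over 12 values, 3 distance classes between 16 and 200 kb in each of the 4 libraries, among 5238 promoters with at least 200 contacts in every library. Isl1, with 148 (WT) and 153 (PATZ1 KO) in MNs, and Lhx3, with 165 in PATZ1 KO MNs, are themselves below that minimum, and the profiles of other promoters were set against theirs. Nearest to Isl1 were Svs1, Tmem184c and Klri2, on chromosomes 6, 8 and 6, at distances of 0.730, 0.812 and 0.876. Nearest to Lhx3 were Trhr2, Nod2 and Zswim4, all on chromosome 8, at 0.474, 0.581 and 0.616. Chromosomes 6 and 8 held 15246770 and 12609508 listed contacts in WT ESCs, against 9355069 on chromosome 4, which is longer than either. The fixed minimum of 200 contacts is easier to pass there, and its part in the choice of these promoters was not tested.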

How the data were processed

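Micro-C libraries of WT and PATZ1 KO E14 ESCs and MNs were mapped and compared for the authors by the maker of the kit. Per the submitters' processing notes the build is mm10 (GRCm38). The deposited lists, 1 per cell state from HiCcompare, give for pairs of 8 kb bins the interaction frequencies, whole-number counts of contacts as the authors deposited them. Only pairs with at least 1 contact in each library of a cell state are listed. Columns of the authors' own comparison (log ratios, scores and p-values) and the jointly normalized frequencies were not used.

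Groups came from the sample labels. Contacts were summed, divided by the mean over all covered pairs of the chromosome at the same distance (unlisted pairs as 0), and compared as log2 ratios with exact 95% Clopper-Pearson intervals. With 1 library per group no test was possible. Pairs closer than 16 kb were left out. Genes came from GENCODE. Relative coverage by GC content used 20 classes of bins over 20 chromosomes, and the corrected expectation is the product with the factors of both bins. The call of promoters past a fold was tried on simulated ESC contacts only, with changes larger than the mark and no GC difference between libraries. That trial does not cover calls near the mark. Members, lists and windows were chosen with earlier results of these data known, and segments of 40 kb and 16 kb, the distant segments, the border blocks and the GC correction after values had been seen. The rule for naming took both genes, the listed factors past a log2 ratio of 0.32, bins at least 40 kb away with at least 20 contacts, the extreme pairs, neighbouring genes and the 3 likest promoters. Alternatives were listed-pair or window expectations, chromosome totals, bin coverage, GC content, other distances, minima, promoter stretches and squares and thinning. Python 3.11.15, NumPy 2.4.6, pandas 2.3.3 and SciPy 1.17.1 were used.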

Additional observations from a re-analysis of the deposited data

Results flagged for a closer look

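At Lhx3 the ratios between genotypes had opposite signs in the 2 cell states, although no direction is shown in ESCs. For the promoter bin the log2 ratio of PATZ1 KO to WT was 0.064 (-0.21 to 0.34) in ESCs and -0.47 in MNs, and for the window it was 0.029 (-0.027 to 0.084) in ESCs and -0.44 in MNs. Both ESC intervals include 0, and with GC content in the expectation the ESC values were -0.019 and -0.054. The difference between the cell states was not tested, since each group is 1 library. The WT MN library, whose coverage follows GC content unlike that of the others, enters both MN values, and with GC content in the expectation they were 0.21 and 0.27. Over the Isl1 window the log2 ratio of MNs to ESCs was -0.23 in WT and 0.0048 (-0.014 to 0.024) in PATZ1 KO, where the interval includes 0, also not tested, and 0.15 and -0.075 with GC content in the expectation.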

How the results depend on the processing

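With 1 library per group no library could be left out. No paired analysis was possible because each group holds 1 replicate. The alternative with jointly normalized frequencies is not reported here, since those columns were left out. Log2 ratios between libraries for the Isl1 promoter with the 3 segments stayed within their intervals under the window, coverage and GC expectations, while the levels were lower under the window and coverage expectations, and promoter and window ratios did so when the deeper library was thinned. Ratios are log2 and, where 4 are given, in the order PATZ1 KO over WT in ESCs and in MNs and MNs over ESCs in WT and in PATZ1 KO. With GC content, Isl1 window ratios were 0.081, -0.14, 0.15 and -0.075 and Lhx3 ones -0.054, 0.27, -0.077 and 0.24, and the Lhx3 promoter was at 0.21 between MN genotypes and -0.072 between WT libraries. The contact of segments 1 and 2 between MN genotypes was then -0.0051, and -0.0032 with bin coverage. With bin coverage, Isl1 window ratios were 0.027, -0.19, 0.30 and 0.076 and Lhx3 ones -0.15, 0.42, -0.47 and 0.10. Isl1 promoter ratios of PATZ1 KO to WT were 0.020 and -0.30, and the Lhx3 promoter was at 0.35 between MN genotypes and -0.49 between WT libraries. Promoter O/E in WT ESCs, PATZ1 KO ESCs, WT MNs and PATZ1 KO MNs was then 0.757, 0.768, 1.04 and 0.846 for Isl1 and 1.77, 1.60, 1.27 and 1.61 for Lhx3. Over listed pairs Isl1 O/E was 0.932, 1.07, 1.08 and 1.14, and Lhx3 window ratios of MNs to ESCs were 0.56 and 0.10. The 24 kb stretch gave an Isl1 O/E of 1.18 in WT ESCs. Scaled to chromosome totals, Isl1 window ratios were -0.024, 0.17, -0.26 and -0.066 and Lhx3 ones -0.030 and -0.52 between genotypes. From 40 kb, the Isl1 window was at 0.21 between MN genotypes and -0.19 between WT libraries, and the Lhx3 window at -0.029 between ESC genotypes and 0.23 between PATZ1 KO libraries. With a mean of at least 3 contacts, Isl1 window ratios were 0.29 between MN genotypes and -0.32 and -0.037 between cell states, and Lhx3 ones 0.69 and 0.23 between cell states. Insulation at the promoters in the same 4 libraries was 0.44, 0.40, -0.010 and 0.10 for Isl1 and -0.58, -0.64, 0.20 and -0.12 for Lhx3 in a 400 kb square. In an 80 kb square it was -0.14, -0.093, -0.69 and -0.67 for Isl1 and 0.18, 0.044, 0.81 and 0.38 for Lhx3, so the sign depends on the square. Border scores changed sign in the 400 kb square to 0.43 (Isl1, WT MNs, -248 kb), 0.23 and 0.15 (Isl1, PATZ1 KO MNs, -632 and 8 kb) and in the 80 kb square to -0.075 (Isl1, WT ESCs, 8 kb) and -0.16 (Lhx3, WT MNs, -64 kb). Median pairs of 2 to 5 contacts limit what single bins can show.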
